A study of Mus musculus with 3 samples.

Results

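The regions described are the autosomal peaks of an L1 RNA ChIRP-seq experiment whose width lies between 6000 bp and 7499 bp, a length close to that known for a complete mouse L1 element. They were chosen by their width alone, as end minus start on chromosomes 1 to 19 of the mm9 build, so their width is a description and supports nothing further. They numbered 5135 of 21985 autosomal peaks (23.4%, exact 95% binomial interval 22.8 to 23.9) and of 24666 peaks in the whole list. The cells were of the E14 line, which is of mouse embryonic stem cells, and the labels name no treatment or change of genotype. The series has 3 samples, 1 each of L1 ChIRP, Malat1 ChIRP and input DNA, and only the L1 library was analysed here. ChIRP fishes a chosen RNA out of crosslinked chromatin with biotinylated DNA probes, here 59 nt long, and chromatin had been sheared to between 2 and 5 kb. The labels call the molecule genomic DNA while the protocol describes making cDNA from the captured RNA, so it is not known which of them a peak reports. With 1 library there was no replicate, the read depth is unknown and no difference below could be set against replicate spread. The intervals treat peaks as independent and cover counting error only.

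L1 elements are retrotransposons that copy themselves through an RNA intermediate. A complete mouse element carries a promoter built from tandemly repeated units, an open reading frame for an RNA-binding protein, a second frame for an endonuclease and reverse transcriptase, and a poly(A) tail. Reverse transcription begins at the tail and often stops early, so most genomic copies lack their front part, and complete elements differ in length with the number of promoter units. L1 RNA is abundant in the nuclei of mouse embryonic stem cells and early embryos. Whether any of the peaks lies on an L1 element was not tested, because no genome sequence or repeat annotation of mm9 was used here, and for the same reason no peak sequence is shown and no gene is named.

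The width distribution rose to a plateau with a steep lower side. From 5 to 6 kb the 100 bp classes held on average 222 peaks, between 196 and 279. The class from 6000 to 6100 bp held 222 peaks, that from 6100 to 6200 bp held 277 and that from 6200 to 6300 bp held 321. The next class, from 6300 to 6400 bp, held 451 peaks, the most of any class. This rise of 130 peaks was the largest step between neighbouring classes from 3 to 10 kb, and the next largest rise, at 4800 bp, was 62. From 6300 to 6800 bp the 5 classes were nearly level, at 451, 438, 448, 448 and 430 peaks. Together these classes held 2215 peaks, 43.1% of the 6 to 7.5 kb peaks. At 6800 bp the count dropped by 74, the largest fall between neighbouring classes in this range. The upper side then sloped on, with 356 peaks from 6800 to 6900 bp, 327 from 7100 to 7200 bp and 262 from 7400 to 7500 bp. Above the upper limit the class from 7500 to 7600 bp held 278 peaks, so the chosen limit does not coincide with a drop.

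**Figure D1:**
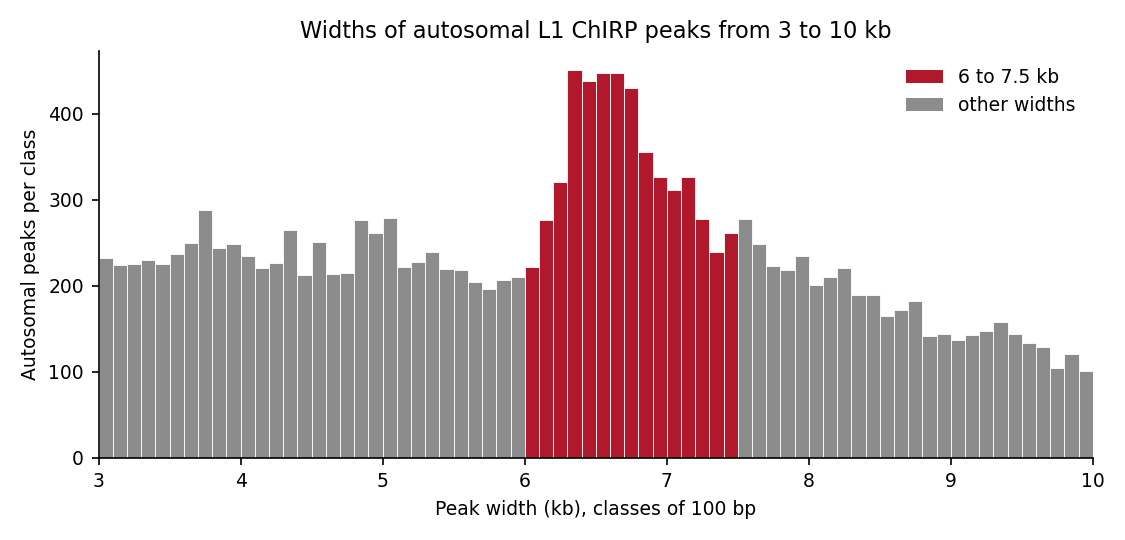
Number of autosomal L1 ChIRP peaks (vertical axis) in 100 bp classes of width from 3 to 10 kb (horizontal axis), with the 6 to 7.5 kb peaks in red and other widths in grey. The count steps from 321 to 451 at 6300 bp, stays between 430 and 451 up to 6800 bp and falls to 262 in the last red class.

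The median width of the 6 to 7.5 kb peaks was 6692 bp, with quartiles of 6402 and 7040 bp. Widths were spread over 1442 distinct values, and the most common one, 6648 bp, occurred 12 times, so the plateau did not come from a single repeated width. The narrowest, of 6000 bp, included chromosome 2 from 26566269 to 26572268, and the widest, of 7499 bp, included chromosome 11 from 34560036 to 34567534. Just outside the limits lay a peak of 5999 bp on chromosome 8, from 22120337 to 22126335, and one of 7500 bp on chromosome 4, from 78641511 to 78649010. Peaks of the chosen width covered 34.5 Mb, or 23.8% of the 145 Mb of autosomal peak sequence. The share by covered bases was thus close to the share by number.

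A higher count in the plateau range, 6.3 to 6.8 kb, than just below it was present on nearly all autosomes. This range was picked after the pooled classes had been seen, and the autosomes are parts of that pool, so their counts describe it and do not support it. Per 100 bp of width, it held more peaks than the range from 6000 to 6300 bp on 18 of 19 autosomes, and the exception was chromosome 19, with 28 peaks in the plateau and 17 below it (ratio 0.99). The ratio averaged 1.61 ± 0.28 (SD over 19 autosomes) and was highest on chromosome 5, at 2.23. It does not cover widths above 6.8 kb, so it shows the lower side of the plateau only. On chromosome 6 the plateau range held 36.3% of the 6 to 7.5 kb peaks, the lowest value, and the fullest class began at 7000 bp. The fullest class lay within the plateau on 14 of 19 autosomes. Median widths of the 6 to 7.5 kb peaks differed little between chromosomes, from 6604 bp on chromosome 8 to 6772 bp on chromosome 10.

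One count stood apart from this common pattern. On chromosome 5 the fullest class was that from 7100 to 7200 bp, with 40 of the 310 peaks of 6 to 7.5 kb (12.9%, exact interval 9.38 to 17.2). On the other 18 autosomes together the same class held 287 of 4825 (5.95%, 5.30 to 6.65), and the highest single value was 8.33%, on chromosome 17. The next fullest class on chromosome 5 held 39 peaks, so being the fullest there rested on a small margin. The 40 peaks were not one local array: they lay in 32 different 1 Mb bins, from 7.62 to 152.1 Mb, and 10 of them had another peak within 10 kb. The class was singled out after all 285 combinations of chromosome and class had been compared, as the one farthest above the product of its totals, 19.7 peaks.

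By number, the 6 to 7.5 kb peaks followed the general density of L1 peaks. They reached 2.13 per Mb over the 2408 Mb of autosomal span, measured on each chromosome from the first peak to the last. Chromosome 3 had the highest density, 2.84 per Mb (444 peaks), and chromosome 11 the lowest, 1.20 per Mb (143 peaks), a 2.36-fold range. Chromosome 19 was next to lowest, with 77 peaks or 1.32 per Mb. The densities averaged 2.09 ± 0.37 per Mb (SD over 19 autosomes). Peaks of other widths spanned a 2.43-fold range, also from chromosome 11 to chromosome 3.

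As a share of a chromosome's peaks, the class was much more even. It averaged 23.4% ± 1.39 (SD over 19 autosomes), from 20.1% on chromosome 7 (282 of 1402, exact interval 18.0 to 22.3) to 25.8% on chromosome 8 (284 of 1099, 23.3 to 28.5). The intervals of these extremes did not overlap, whereas that of chromosome 11, 23.1% (19.9 to 26.7), held the autosomal value. Part of the low share of chromosome 7 lay in its 5 bins with 30 or more peaks, where 20 of 174 peaks were of this width (11.5%, 7.16 to 17.2). Its other bins held 21.3% (19.1 to 23.7).

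**Figure D2:**
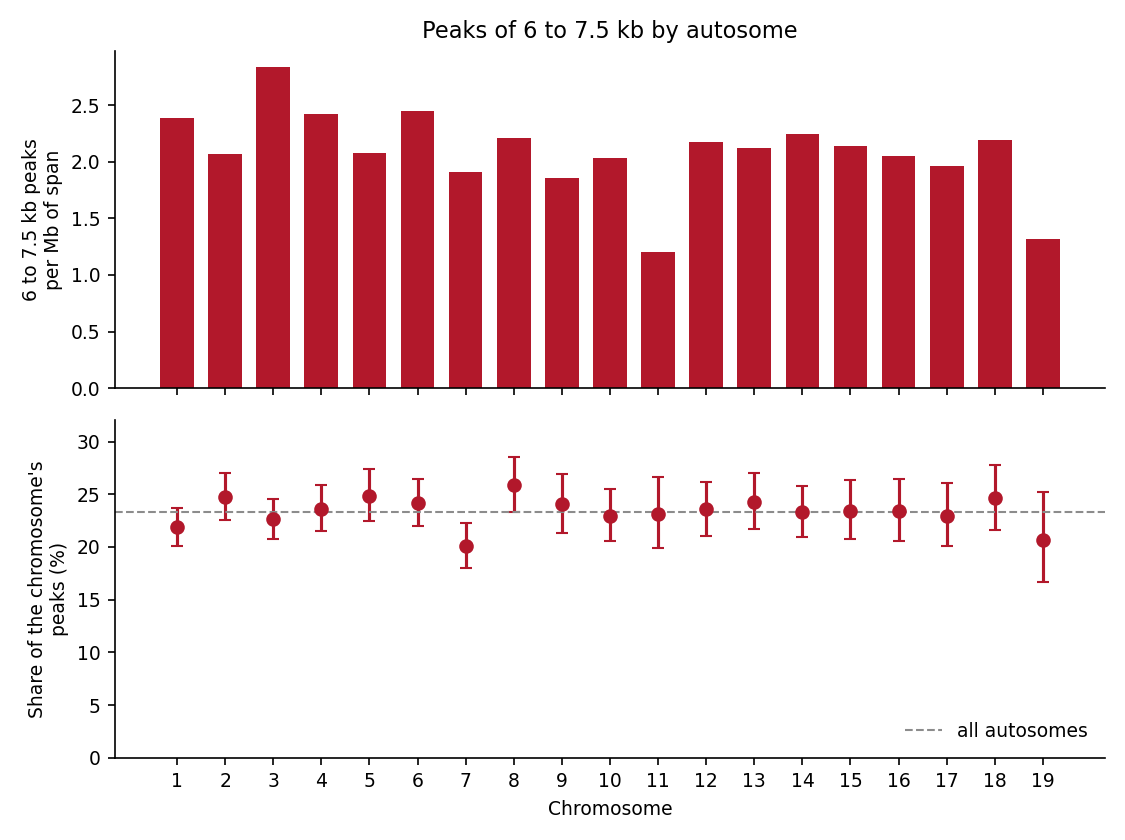
The upper panel gives the number of 6 to 7.5 kb peaks per Mb of span on each autosome, from 1.20 on chromosome 11 to 2.84 on chromosome 3. The lower panel gives their share of the chromosome's peaks in percent, with exact 95% binomial intervals and a dashed line at the autosomal 23.4%; the points lie between 20.1 and 25.8%.

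Along the chromosomes the class was densest at the centromeric end, where mouse chromosomes are numbered from, and sparsest at the other end, as other widths were. In the first 10 Mb of span it had 2.74 peaks per Mb, in the middle 2.15 and in the last 10 Mb 1.36. Other widths had 9.95, 6.995 and 4.08 per Mb. With the span cut into 10 equal parts, the first part held 13.98% of the 6 to 7.5 kb peaks and 15.3% of other widths, and the last held 5.84% and 5.44%. The decrease was not steady: parts 2 to 6 held between 10.4% and 12.1% of the class, the most of these in part 6, and parts 7 to 9 held 8.74%, 9.13% and 6.47%. Among the peaks of each part the class made up between 21.8% (20.4 to 23.3), in the first, and 24.9% (23.1 to 26.7), in part 4. In the first 10 Mb it made up 21.6% of peaks (19.97 to 23.3), in the middle 23.5% (22.9 to 24.1) and in the last 10 Mb 24.95% (22.3 to 27.7).

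The slightly low share at the centromeric end differed between chromosomes. Of the 6 to 7.5 kb peaks, 10.1% lay in the first 10 Mb (9.33 to 11.0), against 11.2% of other widths (10.8 to 11.7), and the class was the lower on 11 of 19 autosomes. These intervals overlapped. Among the other width classes the share was 8.05% under 2 kb, 9.34% for 2 to 4 kb and 11.4% for 4 to 6 kb. It was 11.7% for 7.5 to 10 kb and 14.3% for 10 kb or more, so the class was not the lowest. In the first 10 Mb of chromosome 14 the class made up 9 of 103 peaks, or 8.74%, and in that of chromosome 7 24 of 196, or 12.2%, whereas chromosome 8 had 29 of 89, or 32.6%. The first 10 Mb also had a lower share than the rest of the chromosome on chromosome 19, at 12.6% against 23.2%, on chromosome 18, at 17.6% against 25.9%, and on chromosome 5, at 19.5% against 25.6%. Without chromosomes 7 and 14, which had the lowest shares, the class made up 23.1% of peaks in the first 10 Mb (21.3 to 24.95). They were left out for their low shares while high ones such as chromosome 8 stayed in, so the value could only rise. It therefore does not show that these chromosomes account for the low share. At the other end, 5.02% of the class (4.44 to 5.66) and 4.61% of other widths (4.29 to 4.93) lay in the last 10 Mb, with overlapping intervals and the class higher on 10 of 19 autosomes.

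Spacing set the class apart more clearly than placement did. The distance from a 6 to 7.5 kb peak to the nearest peak of any width, edge to edge, had a median of 19.9 kb, with quartiles of 6.52 and 48.1 kb. For other widths the median was 14.5 kb, with quartiles of 2.91 and 40.1 kb. The class had the longer median on 19 of 19 autosomes, by 5.91 ± 2.38 kb on average (SD over autosomes). Among the 6 width classes its median was the longest, though its 95% interval, 18.96 to 20.8 kb, overlapped that of peaks of 7.5 to 10 kb, whose median was 18.2 kb (16.95 to 19.15). The others were 16 kb for widths of 4 to 6 kb, 13.7 kb under 2 kb, 12.6 kb for 10 kb or more and 10.6 kb for 2 to 4 kb. Distances are taken between called peaks, so how the caller divides a broad signal enters both the width and the distance of a peak, and its part in these values was not tested.

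A near neighbour was correspondingly less frequent. Another peak lay within 10 kb of 1661 of the 5135 peaks (32.3%, 31.1 to 33.6), against 42.6% of other widths (41.8 to 43.3). The share was lower than in other widths on 19 of 19 autosomes, by 10.2 ± 3.35 percentage points. It ranged from 24.5% on chromosome 14 to 42.4% on chromosome 4. The neighbouring width classes came closest, with 37.0% for 7.5 to 10 kb (35.5 to 38.5) and 40.3% for 4 to 6 kb (38.8 to 41.7), and peaks of 2 to 4 kb had the highest share, 48.9% (47.4 to 50.4). Peaks on both sides within 10 kb were found for 5.16% of the class (4.57 to 5.80) and for 8.06% of other widths (7.65 to 8.48).

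Much of this difference lay at gaps of up to 1 kb. Such a close neighbour was found for 550 of the 5135 peaks (10.7%, 9.88 to 11.6) and for 18.6% of other widths (18.1 to 19.2), again with the class lower on 19 of 19 autosomes. Peaks of 7.5 to 10 kb, at 11.6% (10.6 to 12.6), had an interval that overlapped that of the class. Those of 2 to 4 kb reached 27.0% (25.7 to 28.4). Among peaks with nothing within 1 kb, 24.2% of the class still had a neighbour within 10 kb (23.0 to 25.5), against 29.4% of other widths (28.7 to 30.2). Peaks under 2 kb were close to the class here, at 24.01% (20.8 to 27.4).

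Seen from the distance, the share of 6 to 7.5 kb peaks rose with isolation and then stayed level. Among peaks with a neighbour within 1 kb it was 14.9% (13.8 to 16.1). It was 19.8% at 1 to 2 kb, 21.4% at 2 to 5 kb and 22.2% at 5 to 10 kb. From 10 kb onward it lay between 25.7% and 27.0% in all 5 distance classes, including the 693 peaks more than 200 kb from any other (25.7%, 22.5 to 29.1). Isolation beyond 10 kb was thus not accompanied by a further rise. Peaks more than 100 kb from any other made up 9.85% of the class (9.05 to 10.7), 8.66% of other widths (8.24 to 9.09) and 10.5% of 7.5 to 10 kb peaks (9.59 to 11.4).

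**Figure D3:**
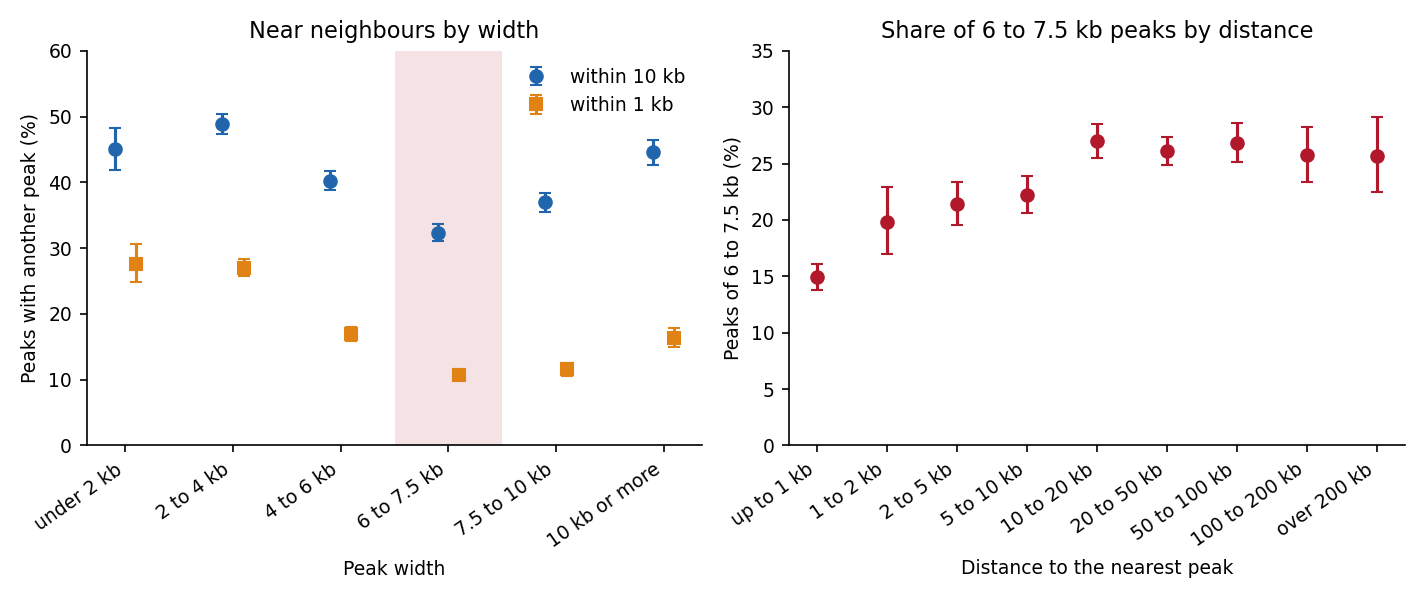
The left panel gives, for each width class, the percentage of peaks with another peak within 10 kb (blue circles) or 1 kb (orange squares); the shaded 6 to 7.5 kb class has the lowest value of both, 32.3% and 10.7%. The right panel gives the percentage of 6 to 7.5 kb peaks among all autosomal peaks at each distance to the nearest peak, which goes from 14.9% up to 1 kb to between 25.7 and 27.0% beyond 10 kb; bars are exact 95% binomial intervals.

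The rise at 6300 bp was seen among the peaks without a close neighbour. From the class below 6300 bp to the class above it the count went from 64 to 91 where the nearest peak lay 1 to 10 kb away, from 146 to 200 at 10 to 50 kb and from 79 to 125 beyond 50 kb. Within 1 kb it went from 32 to 35, and the 5 classes from 6300 to 6800 bp were not level there, at 35, 31, 38, 58 and 49 peaks. Per 100 bp of width, the range from 6300 to 6800 bp held 1.24 times as many peaks as the range from 6000 to 6300 bp where a neighbour lay within 1 kb (211 and 102 peaks). The ratio was between 1.53 and 1.94 in the distance classes from 1 to 200 kb and 2.31 beyond 200 kb, where it rested on 100 and 26 peaks. Within the class, peaks of the plateau had a median nearest distance of 21.5 kb (19.8 to 23.1), against 18.5 kb for those of 6800 to 7500 bp (17.3 to 19.9) and 19.9 kb for those of 6000 to 6300 bp (18.1 to 22.8). All 3 intervals overlapped, but those of the plateau and of 6800 to 7500 bp did so only at their limits. The differences were not tested, and overlap does not show that the sub-ranges were alike.

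Some groups of narrower peaks that stood side by side spanned 6 to 7.5 kb together. Joining peaks less than 1 kb apart gave 1724 groups, of which 1235 contained no 6 to 7.5 kb peak. These groups spanned 6 to 7.5 kb in 250 cases (20.2%, 18.0 to 22.6), and 247 of the 250 were pairs. This share was not above that of single autosomal peaks of this width, 23.4% (22.8 to 23.9). Of all 1724 groups, the 250 are a smaller share still. In 500 bp classes there were 48 groups from 5.5 to 6 kb, then 100 from 6 to 6.5 kb, 81 from 6.5 to 7 kb and 69 from 7 to 7.5 kb, then 49 from 7.5 to 8 kb. No group that contains a 6 to 7.5 kb peak was shorter than 7595 bp, so leaving those groups out lowers only the longer classes. With them included, the 3 classes from 7.5 to 9 kb held 52, 61 and 69 groups, and the class from 6 to 6.5 kb was still the fullest of those up to 16 kb. The typical pair of 6 to 7.5 kb consisted of a piece of 4038 bp and one of 2495 bp (medians) with 72 bp between them, the gaps running from 2 to 982 bp. The shape that sums of such pieces would take by themselves was not modelled, and the comparison was added after the widths had been seen.

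**Figure D4:**
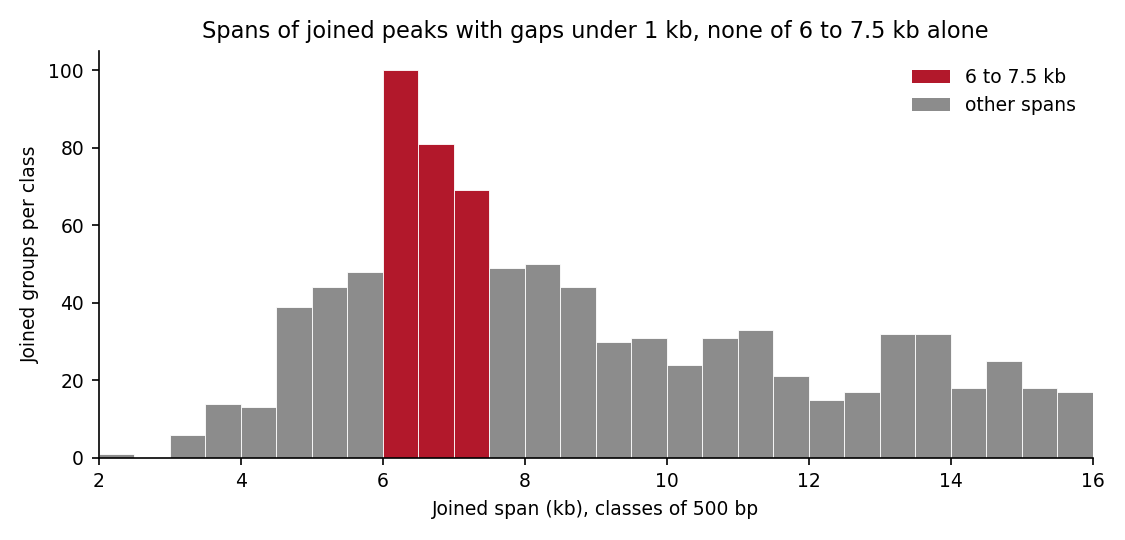
Number of groups of autosomal peaks less than 1 kb apart, none of whose pieces is itself 6 to 7.5 kb wide (vertical axis), by the span of the whole group in 500 bp classes from 2 to 16 kb (horizontal axis). The 3 red classes, 6 to 7.5 kb, hold 100, 81 and 69 groups, against 48 just below and 49 just above; 333 groups of 16 kb or more are not drawn.

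Joining lengthened some peaks out of the class and brought others in. Of the 5135 peaks, 550 were joined to a neighbour and left the class, 4585 stayed as they were and 250 joined groups entered, which gave 4835 of 20018. Farther up, the groups without a 6 to 7.5 kb peak numbered 32 at 13 to 13.5 kb and 32 at 13.5 to 14 kb. The class from 12.5 to 13 kb held 17 and that from 14 to 14.5 kb held 18. Similar counts occurred at shorter spans, with 31 groups from 10500 to 11000 bp and 33 from 11000 to 11500 bp, so those at 13 to 14 kb did not stand out. With all groups included, the 4 classes from 12.5 to 14.5 kb held 45, 59, 52 and 34 groups, a smaller contrast. The classes from 10500 to 11500 bp then held 62 and 54. The contrast was picked out after the counts had been seen and was not tested. Single peaks showed no comparable rise from 12.5 to 14 kb: 153 were 12.5 to 13 kb wide, 153 were 13 to 13.5 kb and 106 were 13.5 to 14 kb.

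Peaks of 6 to 7.5 kb were next to each other slightly more often than they followed other widths. The next peak downstream was again of this width for 1280 of 5130 (24.95%, 23.8 to 26.2), against 22.9% after peaks of other widths (22.3 to 23.5). The difference was seen at short gaps. Where the next peak lay within 20 kb the shares were 24.9% (22.8 to 27.1) and 19.3% (18.3 to 20.3), whereas beyond 100 kb they were 24.5% (22.2 to 26.9) and 24.7% (23.3 to 26.1). Among neighbours within 1 kb on either side, 19.4% of those of a 6 to 7.5 kb peak were of the same width (16.3 to 22.9), against 13.8% of those of other widths (12.7 to 15.0). For peaks of 7.5 to 10 kb it was 15.4% (12.45 to 18.8), an interval that overlapped that of the class. The close neighbours of a 6 to 7.5 kb peak had a median width of 5379 bp, and 34.9% were under 4 kb wide. For other widths these values were 4866 bp and 39.25%. The median went from 4259 bp beside peaks of 2 to 4 kb to 6766 bp beside those of 10 kb or more.

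Most runs were short. Of the 5135 peaks, 2902 (56.5%) had a peak of another width, or the chromosome's end, on both sides, and 718 runs were pairs. Only 17 runs held 5 or more, and the longest held 7. How many such runs the share of the class alone would give was not computed. The runs named here were picked as the longest, so they are a description. The run of 7 lay on chromosome 9 from 7581653 to 8202559, over 621 kb without any peak of another width. All but 1 of its 7 peaks were between 7021 and 7252 bp wide, and the last but one was 6115 bp. The first 4 started at intervals of 118, 108.6 and 108.6 kb, and the next 3 intervals were 162, 77.7 and 37.8 kb. The 3 peaks that begin and end the equal steps, from 7700092 to 7707205, 7808707 to 7815821 and 7917353 to 7924604, were 7114, 7115 and 7252 bp wide.

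The other long runs differed in pace. Chromosome 9 from 10972011 to 11115712 held 6 such peaks within 144 kb, from 6361 to 7359 bp wide, with starts 20.8 to 35.8 kb apart. Chromosome 16 from 82912110 to 83161295 held 6 in 249 kb. Chromosome 1 from 44425826 to 44488920 held 5 within 63.1 kb, and a neighbouring pair in it, 6396 and 6671 bp wide, lay 4 bp apart. Chromosome 1 from 170573703 to 171043560 held 5 over 470 kb, the last 3 of its start-to-start steps being 133, 130 and 124 kb.

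The most isolated peaks of the class stood alone by more than 1 Mb. The farthest from any other was the last peak of chromosome 4, from 152119511 to 152126518 (7008 bp), at 4.94 Mb from the peak before it. A peak of 7279 bp on chromosome 9, from 42862820 to 42870098, was 2.15 Mb from the nearest. Next came chromosome 13 from 99232671 to 99239457 (6787 bp) at 1.59 Mb, chromosome 19 from 37820025 to 37827212 (7188 bp) at 1.22 Mb and chromosome 2 from 173713995 to 173720378 (6384 bp) at 1.15 Mb. Assembly gaps, which hold no peak, were not removed from these distances.

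In bins of 1 Mb the class was slightly scarcer where peaks were many. Of 2138 bins with a peak, 276 held 20 or more peaks of any width, called peak-rich here, and 601 held 1 to 4, called peak-poor. Peak-rich bins held 28.2% of the 6 to 7.5 kb peaks (27.0 to 29.5) and 31.2% of other widths (30.5 to 31.9), and the class was lower on 15 of 19 autosomes, the exceptions being chromosomes 4, 8, 12 and 15. Without chromosome 3, which has the highest share in such bins, 41.9%, the class had 26.9%. Among width classes, peaks under 2 kb had a similar share, 27.4% (24.6 to 30.4), and those of 10 kb or more the highest, 35.9% (34.0 to 37.7). The neighbouring width classes had 30.0% for 4 to 6 kb (28.7 to 31.4) and 30.3% for 7.5 to 10 kb (28.96 to 31.7). Their intervals overlapped that of the class, which had the lower share. Overlap does not show that the shares were equal, and the differences were not tested. Peaks of 2 to 4 kb had 31.3% (29.9 to 32.7). Peak-poor bins held 7.11% of the class (6.42 to 7.85) and 6.39% of other widths (6.02 to 6.77). Those intervals overlapped, the class was higher on 12 of 19 autosomes, and peaks of 7.5 to 10 kb had more, 8.07% (7.27 to 8.92).

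The shift was largest in the densest bins. The 6 to 7.5 kb peaks made up 26.8% of peaks in bins with 3 or 4 peaks (24.02 to 29.7), 23.3% in bins with 10 to 14, 21.4% in bins with 25 to 29 (19.6 to 23.2) and 17.2% in bins with 30 or more (14.9 to 19.8). They were not more frequent still in the sparsest bins, with 1 or 2 peaks, at 22.4% (18.8 to 26.4). Over the same steps the share of peaks of 10 kb or more went from 12.4% to 18.97%. Bins with 30 or more peaks held 3.31% of all 6 to 7.5 kb peaks. The value was 3.28% for peaks under 2 kb, 4.3% for 4 to 6 kb and 4.17% for 7.5 to 10 kb. Their exact intervals overlapped that of the class. Overlap does not show that the shares were equal, and the differences were not tested. Peaks of 2 to 4 kb, at 5.1%, and of 10 kb or more, at 7.01%, had intervals above that of the class. The median width of all peaks was 6617 bp in bins with 3 or 4 peaks, 6269 bp in those with 15 to 19 and 6538 bp in those with 30 or more.

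**Figure D5:**
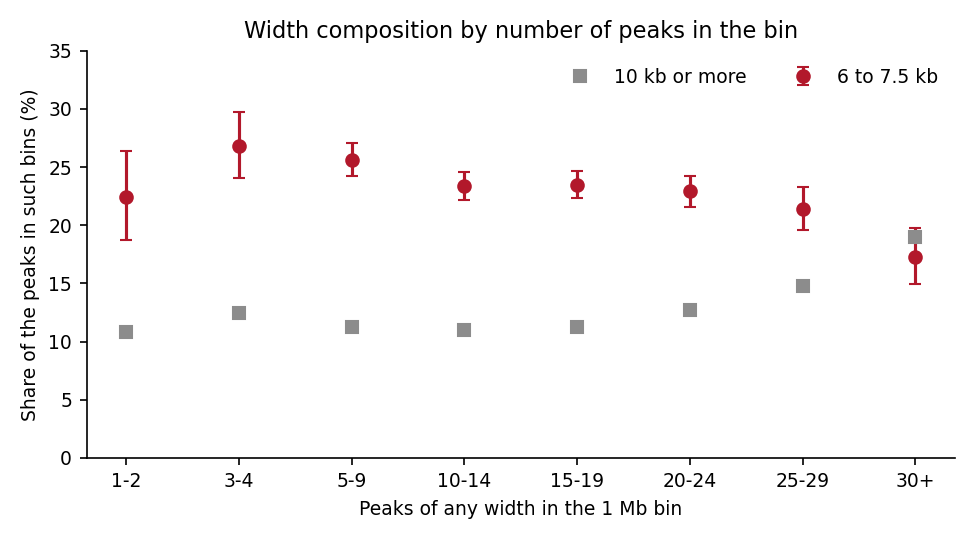
Percentage of autosomal peaks that are 6 to 7.5 kb wide (red circles, with exact 95% binomial intervals) or 10 kb or wider (grey squares), by the number of peaks of any width in their 1 Mb bin (horizontal axis). The red values are 26.8% in bins of 3 or 4 peaks and 17.2% in bins of 30 or more, where the grey value, 18.97%, lies within the red interval.

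The 29 bins with 30 or more peaks lay on 13 chromosomes and held from 2 to 12 peaks of the class. In 20 of them the share was below the autosomal 23.4%. The fullest bin, chromosome 19 from 39000001 to 40000000, had 4 of 43 peaks in the class (9.30%, 2.59 to 22.1), and chromosome 7 from 5000001 to 6000000 had 2 of 42 (4.76%, 0.58 to 16.2). Chromosome 16 from 19000001 to 20000000 had 2 of 36. Chromosome 8 from 62000001 to 63000000 was the opposite, with 12 of 39 (30.8%, 17.0 to 47.6). Outside chromosome 7, which has 5 of these bins, the class made up 150 of 812 peaks, or 18.5%.

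Of the 5 bins that led by their number of 6 to 7.5 kb peaks, 2 were among those with 30 or more peaks of any width. The bins with the most 6 to 7.5 kb peaks were chromosome 4 from 24000001 to 25000000, with 12 of 25 peaks, the bin on chromosome 8 just named, with 12 of 39, chromosome 2 from 55000001 to 56000000, with 11 of 22, chromosome 5 from 56000001 to 57000000, with 11 of 26, and chromosome 1 from 96000001 to 97000000, with 10 of 33. The class thus reached 48% of the peaks in the bin on chromosome 4 (27.8 to 68.7) and 50% in that on chromosome 2 (28.2 to 71.8). At the other extreme, 2 peak-rich bins held no peak of the class: chromosome 3 from 10000001 to 11000000, where the median width was 7550 bp, and chromosome 14 from 3000001 to 4000000, where it was 4918 bp. Each had 21 peaks, for which the exact upper limit of the share is 16.1%. These bins without one were singled out after their values had been seen. In 2 bins of 4 peaks, chromosome 5 from 73000001 to 74000000 and chromosome 8 from 95000001 to 96000000, every peak was of the class.

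Across the 2138 bins, the numbers of 6 to 7.5 kb peaks and of other peaks went together (Pearson r 0.55, Spearman rho 0.60). The bins share 1 library and neighbouring bins resemble each other, so this is a description. Of these bins, 1709 held at least 1 peak of the class and 429 held none, 323 of the latter being peak-poor.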

How the data were processed

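The single deposited file used is a peak list of the L1 ChIRP library, which gives only positions (chromosome, start, end) and no height, score or p-value. The submitters' processing notes list CASAVA, Bowtie2 2.2.2 and MACS 1.4.2 with the mm9 build, but no role or setting. Not given in the sources used here are the control for peak calling, its thresholds and how reads mapping to many places were treated. Malat1 and input were not analysed here. The 6 to 7.5 kb limits, the width classes and the measures were chosen with earlier results of these data known.

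Figures came from matplotlib 3.10.9 and values from scipy 1.17.1, pandas 2.3.3 and numpy 2.4.6 under Python 3.11.15. Printed positions count from 1. Distances run edge to edge on the same chromosome. A bin belongs to a peak by its midpoint, and spans run from the first to the last peak. Shares have exact (Clopper-Pearson) 95% intervals and medians have order-statistic intervals. No p-value was computed, since there is 1 library. The counting functions were tested on simulated data. Named peaks are the 5 most isolated, the 5 longest runs, the 5 bins with the most peaks of the class and those at the limits, ties going by chromosome and start. Repeat content, GC and genes were not analysed here, for want of an mm9 sequence and annotation.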

Additional observations from a re-analysis of the deposited data

Results flagged for a closer look

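Peaks of the same width outside the autosomes were set apart because the comparisons above do not use them. On chromosome X there were 597 among 2177 peaks (27.4%, exact 95% binomial interval 25.6 to 29.4), an interval above that of the autosomes, 22.8 to 23.9. Their median width was 6729 bp, and per 100 bp the range from 6300 to 6800 bp held 1.85 times as many peaks as that from 6000 to 6300 bp (250 and 81 peaks). Chromosome Y had 15 among 40 (37.5%, 22.7 to 54.2). Unplaced sequence had 128 among 464 (27.6%, 23.6 to 31.9), with a median width of 6820 bp. Neither Malat1 nor input peaks were used for comparison.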

How the results depend on the processing

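The lower share of 6 to 7.5 kb peaks with a near neighbour kept its direction against other widths in all 7 alternatives tried, by -3.52 (within 50 kb) to -9.84 percentage points (widths of 6000 to below 7000 bp). The lower share in peak-rich bins kept it in all 7, by -1.04 (widths of 6500 to 7499 bp) to -3.62 points (0.5 Mb bins). The higher share in peak-poor bins kept it in all 6, from 0.16 to 1.10 points. The lower share in the first 10 Mb did not: with widths of 6500 to 7499 bp it was 11.03%, against 10.96% of other widths, a difference of 0.07 points, while with ends of 5 Mb the difference was -0.13 points and with ends of 20 Mb it was -2.32 points (20.8% against 23.1%). Values outside the counting interval of the reported one follow. The share of autosomal peaks, 23.4%, was 16.9% for widths of 6000 to below 7000 bp, 15.6% for 6500 to 7499 bp and 24.1% after peaks closer than 1 kb were merged. The fullest class held 8.78% of the class, or 17.2% with classes of 200 bp. The share with a peak within 10 kb, 32.3%, was 33.7% for 6500 to 7499 bp, 21.3% within 5 kb, 76.5% within 50 kb, 24.4% after merging, 16.3% between midpoints and 24.2% without close neighbours. The median distance, 19.9 kb, was 23.9 kb after merging and 26.6 kb between midpoints. The share in peak-rich bins, 28.2%, was 29.6% for 6500 to 7499 bp, 37.3% in bins of 0.5 Mb, 17.8% in bins of 2 Mb, 24.97% without the peak itself and 3.31% for bins of 30 or more peaks. The share in peak-poor bins, 7.11%, was 6.33% with bins moved by 0.5 Mb and 9.29% without the peak itself. The shares in the first and last 10 Mb, 10.1% and 5.02%, were 5.37% and 2.86% for ends of 5 Mb and 20.8% and 9.58% for ends of 20 Mb. The share followed by a peak of the class, 24.95%, was 19.1% and 16.6% for the narrower width ranges and 22.8% within 10 kb. With each autosome left out in turn, an alternative chosen after seeing the data like those of 30 or more peaks and without close neighbours, the share in peak-rich bins was 26.9% to 28.9%; the other values stayed within their intervals. No paired analysis was possible because no group holds more than a single library. Repeat content, GC and gene overlap were not run. Read depth is unknown, so sites below the caller's threshold are not counted.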
